A study of Pseudopodoces humilis with 2 samples.

Results

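Spliced transcripts that overlap on opposite strands are described here for the ground tit (Pseudopodoces humilis), a songbird of the Tibetan plateau. Total RNA of liver and of muscle, with 1 sample per tissue, was made into libraries with a TruSeq RNA kit and sequenced to help annotate the bird's genes. The labels give no age, sex, number of birds or type of muscle. Transcripts were assembled by the authors with Cufflinks, a program that joins aligned reads into exon structures, giving 1 liver assembly and 2 muscle assemblies, named muscle-2 and muscle-3. All transcripts of 2 or more exons were pooled over the 3 assemblies, and those on the same strand whose spans shared a base were merged to loci. A pair is a locus on the plus strand and a locus on the minus strand that share at least 1 exonic base. There were 1408 such pairs, made of 2734 of the 14921 spliced loci (18.3%).

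Transcripts of opposite strands whose exons overlap are known as cis-natural antisense pairs. Where genes converge, their 3′ ends meet and the shared bases usually lie in their last exons. Where genes diverge, their 5′ ends meet, and such genes can share a promoter region. Antisense overlap is known to affect some genes through collision of polymerases, pairing of the RNAs or masking of sites in the RNA, and many overlapping pairs have no known consequence.

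The liver assembly held 23614 transcripts, against 31092 in muscle-2 and 27092 in muscle-3. All 58388 spliced transcripts carried a strand, 29229 of them plus and 29159 minus, and all 23410 single-exon transcripts carried none. The standard form of the kit named in the labels does not mark the strand of a read, so the strand of a transcript rests on its introns, and an unspliced read on bases shared by a pair could come from either partner. How much of an overlap this sets was not tested. Of the introns, 1 was found on both strands, among 76357 plus and 77453 minus introns. The gene table pointed to 46313678 reads for liver, and 86472618 and 47542891 reads for 2 libraries averaged in its muscle column, which nothing ties to the 2 muscle assemblies. With 1 sample per tissue no difference between tissues was tested, and the 2 muscle assemblies of the same sample give the only measure of spread. A locus missing from an assembly may be absent, too low to assemble or joined to another structure, and these cannot be told apart.

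Most pairs converged. By the outer ends of the loci, 944 pairs (67.0%, Wilson 95% interval 64.5 to 69.5) were tail-to-tail, with the plus locus starting and ending before the minus locus. Another 173 (12.3%, 10.7 to 14.1) were head-to-head, and in 291 (20.7%, 18.6 to 22.9) the span of 1 locus lay within that of the other. The intervals cover counting error only and treat pairs as independent. Among 5160 adjacent opposite-strand loci with no shared span, by contrast, 2231 faced each other with their 3′ ends and 2929 with their 5′ ends. A further 211 opposite-strand loci overlapped in span without sharing an exonic base, and 108 of these were nested, 68 head-to-head and 35 tail-to-tail. The pairs thus had a larger share of convergent ends than both sets, a difference for which no test was made. Loci that share exonic bases are by the rule in neither set. Part of the contrast therefore follows from how the sets were drawn.

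The exonic overlap was long in tail-to-tail and nested pairs and short in head-to-head pairs. The median tail-to-tail pair shared 1707.5 exonic bases (quartiles 755 and 3149), the median nested pair 1398 (613.5 and 3087) and the median head-to-head pair 208 (85 and 419). At least 1000 bases were shared by 68.8% of tail-to-tail and 61.2% of nested pairs, against 6.94% of head-to-head pairs. The overlap took 67.5% of the exonic bases of the smaller partner in the median tail-to-tail pair, 94.0% in the median nested pair and 14.0% in the median head-to-head pair. Overlaps under 50 bases made up 17.3% of head-to-head pairs, but 1.38% of tail-to-tail and 1.03% of nested pairs. Over all pairs the overlap ran from 1 to 19000 bases, with a median of 1348.5.

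**Figure D1:**
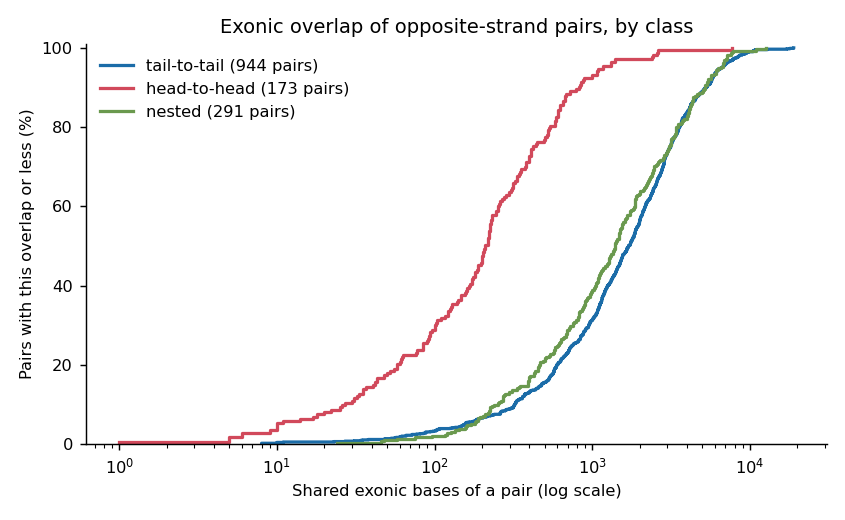
Cumulative share of pairs (vertical axis, percent) by shared exonic bases (horizontal axis, log scale), with 1 line per class. The head-to-head line, with a median of 208 bases, lies left of the tail-to-tail and nested lines, with medians of 1707.5 and 1398 bases, which run close together.

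The shared bases lay where the class places them. In 843 of 944 tail-to-tail pairs (89.3%) the overlap included bases of a 3′-terminal exon of both partners, and such bases made up 85.7% of all tail-to-tail overlap. In 152 of 173 head-to-head pairs (87.9%) it included bases of a 5′-terminal exon of both, which made up 66.6% of the overlap. Overlap included bases of an internal exon of at least 1 partner in 45.3% of tail-to-tail, 27.7% of head-to-head and 58.8% of nested pairs. Exons were pooled over the transcripts of a locus, so a base internal in 1 transcript can be terminal in another. These shares therefore do not measure overlap outside terminal exons. An exon of 1 partner covered a whole intron of the other in 42.2% of tail-to-tail, 16.8% of head-to-head and 63.9% of nested pairs. A single unbroken stretch was shared by 57.8% of tail-to-tail, 76.3% of head-to-head and 25.1% of nested pairs.

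Partners of pairs had more exonic sequence than other loci but a like number of exons. Loci in a pair had a median of 3670 exonic bases, against 2521 for the 12187 loci in no pair, while their median span was 10982 and 11978 bases. The median locus of either kind had 7 exons in its transcript with the most exons. Part of the difference in exonic bases is set by the rule, since a locus with more exonic bases has more to share. Loci limited to 2 exons made up 19.7% of loci in a pair and 15.9% of the others. An intron found with the same ends in at least 2 assemblies was held by 76.3% of loci in a pair (Wilson 95% interval 74.6 to 77.8) and 83.0% of the others (82.3 to 83.6). Both partners held such an intron in 798 pairs (56.7%, 54.1 to 59.2), 1 partner did in 558 and neither in 52. A locus found in 1 assembly alone, as 2600 of all 14921 spliced loci were, cannot hold such an intron. Of the pairs, 567 (40.3%) had at least 1 partner of this kind. These shares are thus in large part set by presence and are no separate measure of splicing.

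Nested pairs joined a small and a large locus. The inner partner had a median of 1984 exonic bases and 2 exons, against 3867 bases and 7 exons for the outer partner. The rule places the shorter span inside, so part of this contrast in bases and exons is set by it. In 190 of 291 nested pairs (65.3%) the inner partner had no transcript of more than 2 exons, and in 69 (23.7%) all of its exonic bases were shared. The inner partner was found in 1 assembly alone in 170 pairs (58.4%), the outer in 33 (11.3%). Of all 14921 spliced loci 2600 were found in 1 assembly alone. Of these 2600 loci 46.6% had no transcript of more than 2 exons, against 6.78% of loci found in all 3 assemblies. In 187 nested pairs the inner partner lay nearer the 3′ end of the outer locus. The loci ended at exactly the same base on 1 side in 91 nested pairs (31.3%). Within an assembly, plus and minus transcripts with an identical outer end were seen in 31 of the 66 nested pairs that shared bases in liver (47.0%), in 63 of 158 in muscle-2 (39.9%) and in 45 of 114 in muscle-3 (39.5%). In tail-to-tail pairs the same was seen in 2 of 271, 6 of 577 and 10 of 425, a contrast largely set by the rule, which counts loci with equal outer ends as nested.

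Pairs were spread over 592 of the 939 scaffolds that held a spliced locus on each strand. Scaffold 22978 held the most, 19 pairs among 146 spliced loci, followed by scaffolds 3513 and 22624 with 13 pairs each. Nearly all loci had a single partner: 2652 of 2734 had 1 and 82 had 2. The pairs formed 1326 separate chains, of which 1249 held 2 loci, 72 held 3 and 5 held 4. The first locus with 2 partners in scaffold order lies on the plus strand of scaffold 373, from position 155042 to 163940. At its 5′ end it shared 583 bases head-to-head with a minus locus from 153349 to 155624. At its 3′ end it shared 1970 bases tail-to-tail with a minus locus from 161727 to 169278. All 3 of these loci were found in liver, muscle-2 and muscle-3. The 3′ overlap was present within each assembly, with 1191 bases in liver, 1011 in muscle-2 and 1319 in muscle-3. The 5′ overlap was 0 in liver, 533 in muscle-2 and 333 in muscle-3.

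Both partners were found together less often in liver than in either muscle assembly. They were both present in liver in 767 of 1408 pairs (54.5%, Wilson 95% interval 51.9 to 57.1), in muscle-2 in 966 (68.6%, 66.1 to 71.0) and in muscle-3 in 925 (65.7%, 63.2 to 68.1). Liver held 1 partner in 543 pairs and neither in 98, muscle-2 held 1 in 403 and neither in 39, and muscle-3 held 1 in 442 and neither in 41. Liver also held fewer loci in all, so these shares are read against the background: 72.5% of all spliced loci were present in liver, 90.2% in muscle-2 and 82.8% in muscle-3. Of the 5160 adjacent opposite-strand loci with no shared span, both were present in liver in 60.6%, in muscle-2 in 82.7% and in muscle-3 in 73.2%. Over all classes the pairs lay below these neighbours in each assembly, but the neighbours hold no nested loci. The 211 opposite-strand loci that overlapped in span without a shared exonic base do include nested ones. Both were present there in 54.0% in liver, 67.8% in muscle-2 and 62.1% in muscle-3, close to the pairs. A lower joint presence than in neighbours was thus not particular to pairs that share exonic bases. No test was made of these differences, and the rule, which pools exons over assemblies, also takes partners found in 1 assembly alone.

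**Figure D2:**
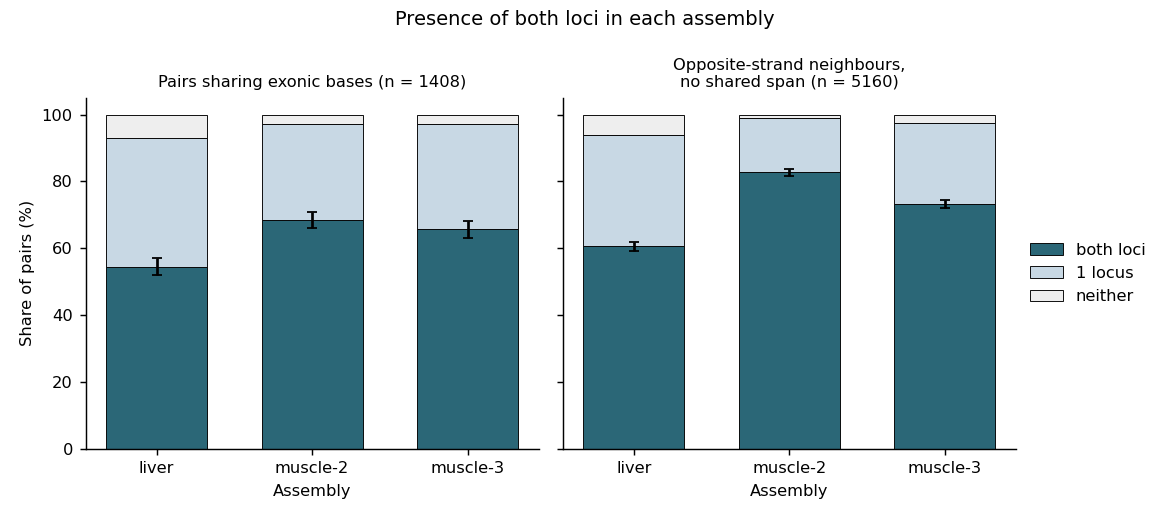
Share of pairs (vertical axis, percent) with both, 1 or neither locus in the liver, muscle-2 and muscle-3 assemblies, for the 1408 pairs on the left and 5160 opposite-strand neighbours with no shared span on the right. Bars show Wilson 95% intervals of the share with both loci, which is 54.5%, 68.6% and 65.7% for pairs and 60.6%, 82.7% and 73.2% for neighbours.

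Counted as single loci, the partners also had their lowest presence in liver, but there they were not below other loci. In liver, 73.6% of loci in a pair were present (Wilson 95% interval 71.9 to 75.2), against 72.3% of loci in no pair (71.5 to 73.1). In muscle-2 it was 82.9% (81.5 to 84.3) against 91.9% (91.4 to 92.3), and in muscle-3 81.2% (79.7 to 82.6) against 83.2% (82.5 to 83.8). The gap between paired and unpaired loci was widest in muscle-2, the assembly with the most transcripts. Paired loci were also lower than unpaired loci in muscle-3, and slightly higher in liver. The intervals overlapped in liver and muscle-3, which is no test of these differences.

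Classes differed in how often both partners were found. For nested pairs both were present in liver in 32.6%, in muscle-2 in 60.5% and in muscle-3 in 50.2%. The 108 nested loci that overlapped in span without a shared exonic base gave 47.2%, 60.2% and 54.6%. Nested pairs were thus lower in liver and level in muscle-2, and in muscle-3 their interval (44.5 to 55.9) included the other share. For tail-to-tail pairs the shares were 58.6%, 71.8% and 68.8%, against 58.7%, 82.4% and 72.5% for neighbours that face each other with their 3′ ends. Head-to-head pairs did not follow the order of the other classes, with 68.8% in liver, 64.7% in muscle-2 and 75.1% in muscle-3. The Wilson 95% intervals of liver (61.5 to 75.2) and muscle-2 (57.4 to 71.5) overlapped. Both shares come from the same pairs, so this overlap is no test of their difference. Neighbours that face each other with their 5′ ends gave 62.1%, 83.0% and 73.7%. Set against neighbours of the same orientation, the pairs were thus lower in muscle-2 in both classes. In liver tail-to-tail pairs were level with neighbours, and the interval of head-to-head pairs (61.5 to 75.2) included the 62.1% of neighbours. In muscle-3 tail-to-tail pairs stood at 68.8% against 72.5%, and head-to-head pairs at 75.1% against 73.7%.

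By tissue, with muscle counted as either muscle assembly, both partners were found in both tissues in 632 pairs (44.9%). In 518 pairs (36.8%) 1 partner was found in both tissues and the other in muscle only, and in 126 (8.95%) the other was found in liver only. Both partners were found only in liver in 9 pairs and only in muscle in 98. In 25 pairs (1.78%) 1 partner was found only in liver and the other only in muscle. The opposite-strand neighbours with no shared span gave 54.0%, 31.4%, 6.32%, 0.271%, 6.18% and 1.84% for the same patterns. A partner on each side of the tissue divide was thus about as common among the pairs as among neighbours that do not overlap.

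A partner that was missing from an assembly was often covered there by the exons of the other strand. Of 722 partners absent from liver, 473 (65.5%) had exonic bases inside a minus exon for a plus partner, or the reverse, in the liver assembly, and for 236 (32.7%) this held for at least 50% of their exonic bases. Of 467 absent from muscle-2, 362 (77.5%) had such cover and 196 (42.0%) had it over at least 50%. Of 515 absent from muscle-3, 399 (77.5%) had such cover and 222 (43.1%) had it over at least 50%. No exon at all, of either strand or of no strand, lay on the exons of 186 absent partners in liver (25.8%), 84 in muscle-2 (18.0%) and 78 in muscle-3 (15.1%). Cover by the other strand is partly set by the rule, which takes only loci that overlap an opposite-strand exon in some assembly.

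Overlap itself varied between assemblies even where both partners were present in each. In 462 pairs (32.8%) both partners were found in liver, muscle-2 and muscle-3. Among these, exons of the same assembly shared a base in 181 pairs in liver (39.2%, Wilson 95% interval 34.8 to 43.7), in 363 in muscle-2 (78.6%, 74.6 to 82.1) and in 270 in muscle-3 (58.4%, 53.9 to 62.8). The overlap was there in all 3 assemblies in 123 of them, in muscle-2 and muscle-3 but not liver in 94, in muscle-2 alone in 123, in muscle-3 alone in 42 and in liver alone in 24. In 22 it arose only when exons of different assemblies were pooled. Liver had the fewest overlaps, but the 2 muscle assemblies, which come from 1 sample, differed from each other about as much as muscle-3 differed from liver. The step between liver and muscle-3 thus lay within the spread between assemblies of the same tissue. Because muscle-3 lay between the other 2, the step between liver and muscle-2 is wider than that spread by construction. Pairs are chosen by overlap in the pooled exons, so an assembly that supplies more of the overlaps also has a higher share here. These differences were not tested.

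Over all 1408 pairs, 1200 (85.2%) shared bases within at least 1 assembly, and 769 (54.6%) did so in exactly 1. The overlap was seen in liver and a muscle assembly in 222 pairs (15.8%), in a muscle assembly and not liver in 833 (59.2%), in liver and no muscle assembly in 145 (10.3%), and within no single assembly in 208 (14.8%). The last share was 38.2% for head-to-head pairs, 11.4% for tail-to-tail and 11.7% for nested pairs. Taken alone, by the same rule, the liver assembly gave 369 pairs among 11819 spliced loci. Muscle-2 gave 799 pairs among 13749 loci, and muscle-3 gave 591 among 13024.

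The ends that face each other lay at different positions in the 3 assemblies. In the 359 tail-to-tail pairs found in all 3 assemblies, the 3′ ends stood a median of 157 bases apart in liver, while they overlapped by span in muscle-2 (median distance -1692, where a negative distance is an overlap) and in muscle-3 (-750). The ends overlapped in 157 of these pairs in liver (43.7%), 300 in muscle-2 (83.6%) and 224 in muscle-3 (62.4%). Where they did not overlap, the median gap was 1145.5 bases in liver, 1123 in muscle-2 and 1234 in muscle-3. In the 71 head-to-head pairs found in all 3, the median distance between the 5′ ends was 159 bases in liver, -156 in muscle-2 and 74 in muscle-3.

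**Figure D3:**
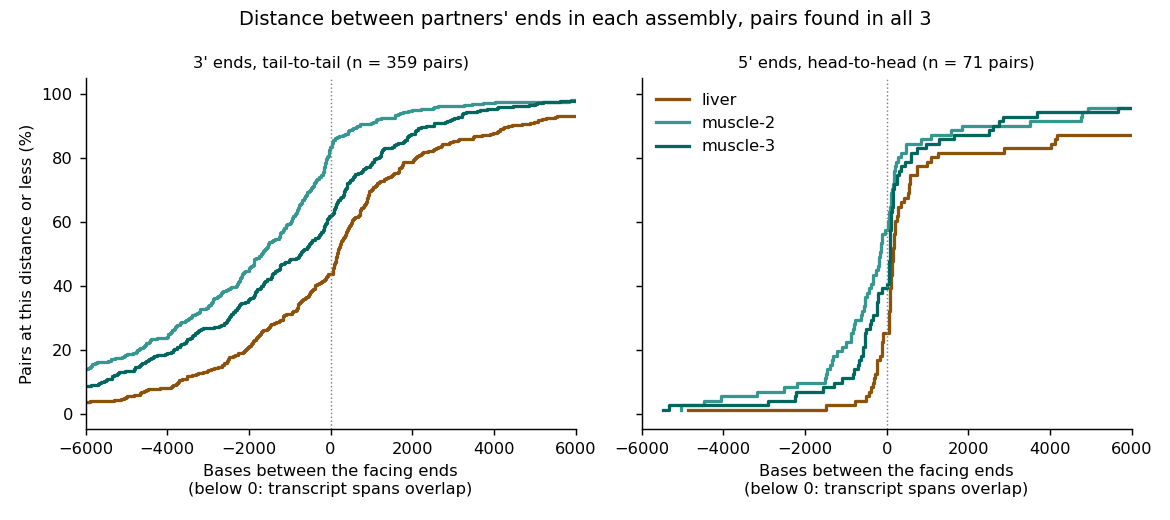
Cumulative share of pairs (vertical axis, percent) by the bases between the facing ends of the partners (horizontal axis, drawn from -6000 to 6000 bases, below 0 where spans overlap), for pairs found in all 3 assemblies. The liver line lies to the right of both muscle lines, and at 0 bases 43.7% of tail-to-tail pairs overlap in liver, 83.6% in muscle-2 and 62.4% in muscle-3.

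Ends at least 500 bases farther out in muscle-2 than in another assembly were more frequent at facing ends than at ends that point away. The 3′ ends of tail-to-tail partners found in all 3 assemblies lay at least 500 bases farther out in muscle-2 than in liver in 43.2% of 718 loci, against 16.9% of the 7771 loci found in all 3 assemblies and in no pair. Their 5′ ends did so in 16.4%, against 18.8%. For 142 head-to-head partners it was the 5′ ends, with 28.9% at least 500 bases farther out in muscle-2, while their 3′ ends did so in 14.8%. A pair is chosen for ends that reach far in some assembly, so a wide scatter of facing ends follows from the rule. An assembly with more far-reaching ends also supplies more of the pairs, so the direction is not independent of the rule either. It was not tested. The 2 muscle assemblies of the same sample differed as well. The 3′ ends of tail-to-tail partners lay at least 500 bases farther out in muscle-2 than in muscle-3 in 31.3%. For 5′ ends of head-to-head partners it was 22.5%, while loci in no pair gave 11.1% at 3′ ends and 10.7% at 5′ ends. Muscle-3 reached that far beyond liver at 32.3% of tail-to-tail 3′ ends and 20.4% of head-to-head 5′ ends. Among loci in no pair these shares were 14.4% and 16.0%, so such reach was not particular to muscle-2. Over any distance, the 3′ ends of tail-to-tail partners reached farther out in muscle-2 than in liver in 59.6%, and farther in liver in 38.9%. For their 5′ ends, which point away, these shares were 71.0% and 24.7%. Loci in no pair gave 51.4% and 45.0% at 3′ ends and 69.5% and 25.7% at 5′ ends. Over any distance, a farther reach in muscle-2 was thus not particular to facing ends.

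Where an overlap was assembled in 2 assemblies, its length was within 2-fold in most pairs but not in all. In 171 pairs with overlap in both liver and muscle-2, the overlap was longer in liver in 81 and in muscle-2 in 84, and 61.4% of pairs were within 2-fold. For liver and muscle-3 it was longer in liver in 94 and in muscle-3 in 76 of 174 pairs, and 67.2% were within 2-fold. Between muscle-2 and muscle-3 it was longer in muscle-2 in 165 and in muscle-3 in 153 of 332 pairs, and 68.1% were within 2-fold. The median absolute difference was 233 bases between liver and muscle-2, 203.5 between liver and muscle-3 and 173.5 between the muscle assemblies. On the log2 scale the median absolute ratio was 0.52 for liver and muscle-2, 0.46 for liver and muscle-3 and 0.33 for muscle-2 and muscle-3. In the 123 pairs with overlap in every assembly, the median overlap was 1497 bases in liver, 1004 in muscle-2 and 1073 in muscle-3. These medians were taken per assembly and not pair by pair. Pair by pair, over all pairs with overlap in both assemblies, the median log2 ratio was 0 for liver over muscle-2. It was 0.0066 for liver over muscle-3 and 0 for muscle-2 over muscle-3. These differences were not tested.

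**Figure D4:**
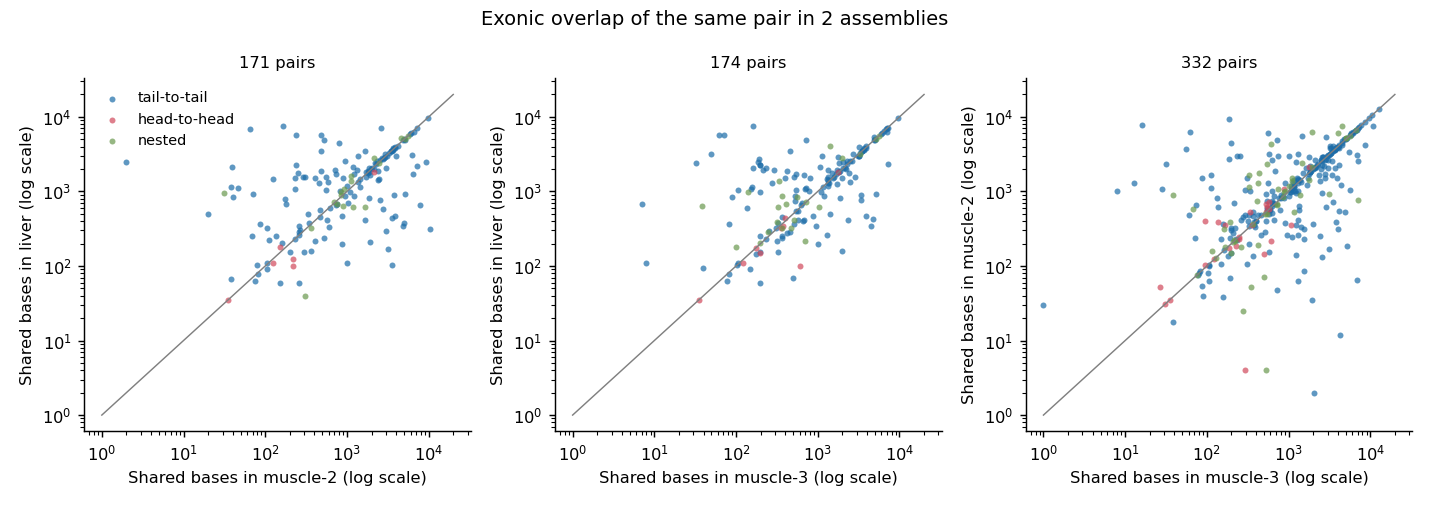
Shared exonic bases of the same pair in 2 assemblies (both axes log scale, 1 point per pair, coloured by class): liver against muscle-2 (171 pairs), liver against muscle-3 (174) and muscle-2 against muscle-3 (332). The line marks equal overlap, and points scatter to both sides of it in each panel.

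Among tail-to-tail pairs with both partners in all 3 assemblies, the largest overlap was on scaffold 22986, between a plus locus from 2174367 to 2265188 and a minus locus from 2246602 to 2278482. They shared 17953 bases in 2 stretches, which is 84.4% of the plus and 93.8% of the minus exonic bases. Within an assembly the overlap was 0 in liver, 7645 bases in muscle-2 and 10826 in muscle-3, so the pooled value is larger than any single one. On scaffold 18321 the loci from 3363900 to 3434311 (plus) and 3422112 to 3459466 (minus) shared 10891 bases, with 8702 in muscle-2 and 0 in liver and muscle-3. On scaffold 23084 the loci from 2254149 to 2327699 (plus) and 2317213 to 2350244 (minus) shared 10487 bases, with 0 in liver, 10485 in muscle-2 and 10487 in muscle-3. Scaffold 22777 held the one of the 5 whose overlap was assembled alike everywhere. There the loci from 972774 to 1018327 (plus) and 1008038 to 1033835 (minus) shared 9689 bases, with 9620 in liver and 9689 in each muscle assembly. On scaffold 22591 the loci from 419797 to 431367 (plus) and 421144 to 505509 (minus) shared 9574 bases, all of them in muscle-3 and 0 in liver and muscle-2.

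Among head-to-head pairs with both partners in all 3 assemblies, the 5 largest overlaps were smaller, and in 3 of these 5 pairs the overlap was seen in muscle-2 alone. On scaffold 22741 a plus locus from 401778 to 407170 and a minus locus from 393952 to 407112 shared 2434 bases, with 1845 in liver, 2138 in muscle-2 and 1786 in muscle-3. Head-to-head by its outer ends, this pair had its shared bases in the last exon of the plus locus and the first exon of the minus locus. On scaffold 22942 the loci from 490717 to 507793 (plus) and 482477 to 493896 (minus) shared 1312 bases in 4 stretches, and on scaffold 22435 the loci from 312073 to 318402 (plus) and 310682 to 313945 (minus) shared 1309. Both were overlaps of muscle-2, with 1224 and 219 bases there and 0 in liver and muscle-3. On scaffold 5951 the loci from 1234999 to 1246230 (plus) and 1233756 to 1237520 (minus) shared 1180 bases in 5 stretches, with 1045 in muscle-2 and 0 elsewhere. The 1096 bases shared on scaffold 17154 by loci from 89825 to 118965 (plus) and 87699 to 91303 (minus) were within no single assembly.

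The largest nested overlap with both partners in all 3 assemblies was on scaffold 14488. A minus locus of up to 8 exons, from 1590228 to 1603668, lay inside a plus locus of up to 65 exons, from 1519452 to 1660020, and shared 7073 of its 7819 exonic bases. The overlap was 0 in liver, 757 bases in muscle-2 and 7073 in muscle-3. The next 2 were alike in every assembly. On scaffold 15134 a minus locus of 2 exons, from 436213 to 441945, shared 5647 bases with a plus locus from 409922 to 441945, with 5599 in liver, 5591 in muscle-2 and 5618 in muscle-3. On scaffold 14896 a minus locus from 614839 to 622147 shared 5190 bases with a plus locus from 595408 to 630599, with 5061 in liver, 5149 in muscle-2 and 5095 in muscle-3. Smaller ones followed on scaffold 9460, where a plus locus from 580380 to 587586 shared 3821 bases with a minus locus from 572970 to 628262 but only 439 within muscle-2 and 0 in liver and muscle-3. On scaffold 19805 a plus locus from 241351 to 251217 began at the same base as the minus locus around it, which ends at 254966, and shared 3038 bases with it, with 2825 in liver, 2124 in muscle-2 and 1955 in muscle-3.

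**Figure D5:**
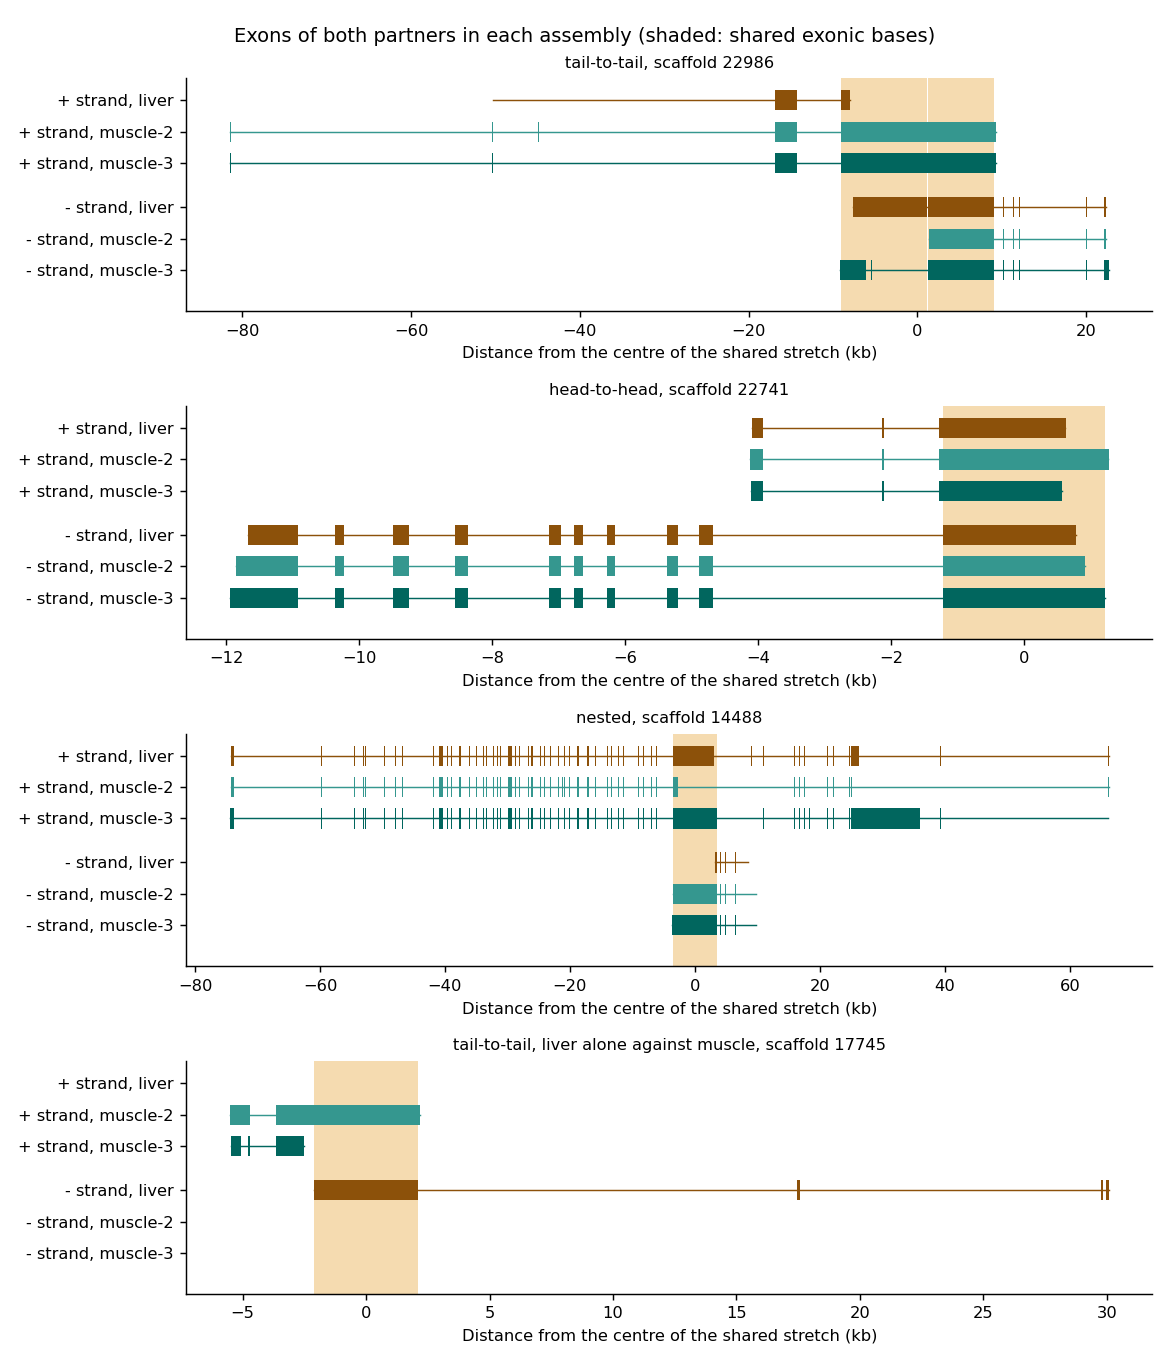
Exons (blocks) and introns (lines) of both partners in each assembly for the largest tail-to-tail, head-to-head and nested overlaps of pairs found in all 3 assemblies and for the largest overlap of a locus of liver alone with a locus of muscle. The horizontal axis is the distance in kb from the centre of the shared stretch, and shading marks the 17953, 2434, 7073 and 4217 shared exonic bases.

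Pairs that divided strictly between the tissues were 1.21% of all pairs, a pattern not counted among neighbours. In these 17 pairs 1 partner was found in liver alone and the other in both muscle assemblies and not liver. Of the 17 pairs 14 were tail-to-tail, beside 67.0% of all pairs, and the median overlap of the 17 was 578 bases (9 to 4217). In these the overlap exists only across assemblies, because no assembly holds both partners. The largest was on scaffold 17745, where a plus locus of muscle from 533141 to 540825 and a minus locus of liver from 536544 to 568720 shared 4217 bases. All of these bases lay in an exon of muscle-2, and the muscle-3 exons of the plus locus ended before them. On scaffold 19677 a plus locus of liver from 536905 to 570706, with up to 19 exons, and a minus locus of muscle from 568286 to 598638, with up to 44, shared 2418 bases. On scaffold 23049 a plus locus of liver from 421219 to 424623 and a minus locus of muscle from 422484 to 428262 shared 2140 bases. A plus locus of liver on scaffold 7430, from 231023 to 243675, lay within a minus locus of muscle from 192975 to 266406 and shared 1554 bases. On scaffold 15407 both partners had many exons, up to 93 in a plus locus of muscle from 1068 to 70279 and up to 35 in a minus locus of liver from 68815 to 98491, and they shared 1257 bases.

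Pairs limited to 1 tissue were counted under the same strict rule. Both partners were found in liver alone in 9 pairs (0.639%, against 0.271% of neighbours). Of these 5 were nested, beside 20.7% of all pairs, and the median overlap of the 9 was 1062 bases. The largest were on scaffold 20644 (45906 to 51967 plus, 47977 to 52671 minus, 2845 bases), scaffold 16921 (560448 to 564603 plus, 561435 to 564603 minus, 2483 bases) and scaffold 13422 (221259 to 226065 plus, 191821 to 238189 minus, 2187 bases). None of these 6 loci had more than 3 exons. Both partners were found in both muscle assemblies and not liver in 27 pairs (1.92%), a pattern not counted among neighbours. Of these pairs 15 were nested, beside 20.7% of all pairs, and the median overlap of the 27 was 1119 bases. The largest was on scaffold 21612 between loci from 52405 to 66009 (plus) and 55534 to 98991 (minus), with 8334 bases in muscle-2 and 0 in muscle-3. On scaffold 1155 a plus locus from 1223646 to 1231319 lay within a minus locus from 1218634 to 1235945 with all of its 6721 exonic bases shared, 6613 of them in muscle-2 and 6720 in muscle-3. On scaffold 12228 the minus locus from 2235942 to 2245523 ended with the plus locus around it, which starts at 2071204, and shared 6553 bases, with 6303 in muscle-2 and 1935 in muscle-3.

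At the other extreme lay pairs at the threshold of 1 shared base. On scaffold 22624 a plus locus from 1407461 to 1426767 and a minus locus from 1380724 to 1407461 shared 1 base head-to-head. Pairs on scaffold 4893 (plus from 1822528, minus to 1822532) and scaffold 22978 (plus from 294686, minus to 294690) shared 5 bases each, also head-to-head. None of these 3 had the overlap within an assembly. The smallest tail-to-tail overlap was 8 bases, on scaffold 17397 from 1296053 to 1296060, and the smallest nested overlap was 24 bases, on scaffold 22682 from 891175 to 891198. Just outside the threshold, opposite-strand loci with overlapping spans but no shared exonic base came within 4 bases on scaffold 22645 and within 11 bases on scaffolds 3513 and 23049.

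The largest share of a smaller partner was 99.9% in tail-to-tail pairs. On scaffold 22276 a plus locus of liver from 98834 to 102663 had 3683 of 3685 exonic bases in common with a minus locus from 98836 to 127021 that was found in all 3 assemblies. For head-to-head pairs it was 97.4%, for a minus locus of 605 exonic bases on scaffold 18392 from 613564 to 614661. For nested pairs the share was 100% in 69 pairs, the first of them on scaffold 123, where a plus locus from 2375 to 3613 and the minus locus around it, from 588 to 3613, ended at the same base.

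Gene levels could be set beside a pair on few scaffolds, since the gene table gives no positions. On 83 scaffolds with exactly 2 spliced loci that formed a pair, the table listed 0 genes on 34, 1 gene on 31, 2 on 12 and more on 6. At least 2 genes were thus listed on 21.7% of these scaffolds (Wilson 95% interval 14.2 to 31.7), against 63.8% (52.8 to 73.4) of 80 scaffolds with exactly 1 plus and 1 minus spliced locus that formed no pair. Those 80 also listed 3 or more genes more often, on 22 scaffolds. Scaffold length was not taken into account, so the 2 sets may differ in it. On 65 of these 83 scaffolds the listed genes were thus fewer than the assembled partners. The table's row of ambiguous reads came to 0.0635% of reads in liver, and to 0.217% in muscle, if that row's length is taken as 1.

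On the 12 scaffolds with 2 genes and 1 pair, levels are the deposited RPKM, a read count divided by gene length and library size, and the files do not say which gene is which partner. Both genes were higher in muscle on 9 of the 12, both were higher in liver on 2 and the genes were split on 1. Of all 15394 genes 78.8% had the higher RPKM in muscle, and of the 24 genes on these scaffolds 19 did (79.2%), a share near the background. On the log2 scale, with 1 added to each RPKM, the largest differences were on scaffold 18792, with a nested pair of 678 shared bases. There evm.TU.scaffold18792.1 stood at 3.49 RPKM in liver and 24.7 in muscle, and evm.TU.scaffold18792.2 at 3.51 RPKM in liver and 21.9 in muscle. The plus partner of that pair was assembled in muscle only, the minus partner in both tissues. On scaffold 22979, with a nested pair of 5186 shared bases, the difference ran the other way. Gene evm.TU.scaffold22979.1 stood at 0.150 RPKM in liver and 0.0315 in muscle, and evm.TU.scaffold22979.2 at 3.17 RPKM in liver and 0.780 in muscle. The split pair was on scaffold 16881, where evm.TU.scaffold16881.1 stood at 3.46 RPKM in liver and 4.77 in muscle, and evm.TU.scaffold16881.2 at 0.935 RPKM in liver and 0.378 in muscle. Its partners shared 1932 bases tail-to-tail. On scaffold 20731 both partners were assembled in both tissues, and evm.TU.scaffold20731.2 stood at 0.000757 RPKM in liver and 0.00112 in muscle. Whether each listed gene corresponds to a partner was not tested.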

How the data were processed

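Libraries of total RNA from liver and muscle were sequenced, and the submitters' processing notes name TopHat, which aligns reads across introns. Transcripts were assembled with Cufflinks, per the file's source column. Not given in the sources used here are versions, genome build and annotation. The deposited assemblies hold scaffold positions (1-based) of transcripts and of exons, written as CDS rows, and a score between 100 and 1000 that the authors' assembler gave, which was not used. The authors deposited RPKM per gene, per the file headers.

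Spliced transcripts were pooled, merged by strand and paired as described above. Presence in an assembly means that a spliced transcript of it belongs to the locus. Equal outer ends count as nested. Merging, overlap and class were tested on simulated transcripts against base-by-base counts. Read totals are the smallest that give whole reads for the rows of the table that are not genes (liver), or follow from ratios that recur between the columns (muscle). Shares have Wilson 95% intervals. No differences were tested, with 1 sample per tissue.

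The pairs described one by one were chosen by a fixed rule: the 5 largest overlaps per class with both partners in all 3 assemblies, the largest of each strict tissue pattern, the extremes of overlap, and the first locus with most partners. The members, the rule and the alternatives were chosen with earlier results of these data known. Gene lists were not evaluated, since gene IDs come without names in the files. Alternatives were other minimum overlaps, exon numbers and transcript lengths, other merging, leaving out each muscle assembly, overlap within 1 assembly, and other definitions of presence and class. A further alternative left out transcripts with an intron found on both strands. Comparisons with neighbours, facing ends, coincident ends and cover of absent partners were added after the data were examined. Calculations used Python 3.11.15, numpy 2.4.6, scipy 1.17.1 and matplotlib 3.10.9.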

Additional observations from a re-analysis of the deposited data

Results flagged for a closer look

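Single-exon transcripts carry no strand and entered no pair, but they lay on the shared exonic bases of 330 of 1408 pairs (23.4%, Wilson 95% interval 21.3 to 25.7) in at least 1 assembly. The count was set against 0 alone, which any such transcript exceeds. Over all exonic bases of a locus, such transcripts lay on 34.2% of loci in a pair (32.4 to 36.0) and on 26.1% of loci in no pair (25.3 to 26.9), so they were not limited to pairs. They did so in 158 pairs in liver, 130 in muscle-2 and 150 in muscle-3.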

How the results depend on the processing

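Of 62 recomputed values, 34 stayed within 1.5 times the count of pairs or within the 95% interval of the reported share or median, and 28 moved outside. The values that stayed include all those of an alternative that left out only 2 transcripts, with an intron found on both strands. It could hardly move any value. In each case below the cause was not tested. With transcripts of 3 or more exons there were 888 pairs, 76.2% of them tail-to-tail, and both partners were present in liver in 68.9%, in muscle-2 in 72.3% and in muscle-3 in 74.1%, so the order of the muscle assemblies turned. Without the muscle-2 assembly there were 886 pairs, 70.4% tail-to-tail, with a median overlap of 1191 bases and both partners in liver in 64.3% and in muscle-3 in 77.4%. Without the muscle-3 assembly 71.6% were tail-to-tail, with both partners in liver in 60.2% and in muscle-2 in 78.3%. With overlap required within 1 assembly 69.7% were tail-to-tail, the median overlap was 1521.5 bases, and both partners were present in muscle-2 in 74.8% and in muscle-3 in 68.3%. With at least 200 shared bases 70.8% were tail-to-tail and the median, higher by construction, was 1610 bases. Unmerged, there were 8817 pairs of transcripts, 79.4% tail-to-tail with a median of 924 bases, and both came from liver in 6.11%, from muscle-2 in 13.3% and from muscle-3 in 10.003%, shares that fall by construction because a transcript belongs to 1 assembly. With presence counted from any transcript on the strand or of no strand, both partners were present in liver in 64.7%, in muscle-2 in 74.1% and in muscle-3 in 73.0%. Tail-to-tail stayed the most frequent class, and liver the assembly with the lowest share of pairs holding both partners, in all alternatives run. No paired analysis was possible because each tissue has 1 sample. The reads behind each assembly were not known here, so the part of depth in the presence of loci was not tested.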
